A study of Mus musculus with 2 samples.

Results

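The genes described here are 9 components of bone morphogenetic protein (BMP) signaling out of 32285 genes in the count tables. They are the ligands Bmp2, Bmp4, Bmp6 and Bmp7, the secreted antagonists Nog (noggin), Grem1 (gremlin 1) and Sostdc1 (also called ectodin or wise), and the type I receptors Bmpr1a and Bmpr1b. They were taken by name, as ligands, antagonists and type I receptors of the pathway known in the hair follicle, by a rule whose wording uses no measured value, although earlier results of these data were known when they were chosen. Each gene was followed in single-cell RNA sequencing (scRNA-seq) of dorsal skin from male C3H/HeN mice. The control library (Con) pooled the skin of 15 mice given vehicle. The TP library pooled 15 mice that received testosterone propionate (TP), an injectable testosterone ester, subcutaneously at 0.5 mg per day as a model of androgenetic alopecia. All mice were shaved, were 7 weeks old at the start and were 9 weeks old when the skin was taken. Animals that also received an antibody against CXCL12 were not analysed here. With 1 pooled library per group, no difference below has a replicate check, and a difference between the libraries can come from the treatment, from the pools or from the dissociation. The intervals are 95% intervals that cover counting error only, and no p-value is given.

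BMP ligands bind type I and type II receptors at the cell surface, which phosphorylate SMAD1, SMAD5 and SMAD9, and these enter the nucleus with SMAD4 and switch on targets such as the Id genes. Antagonists such as noggin bind the ligands outside the cell and keep them from their receptors. In the hair follicle, BMP signaling is known to hold bulge stem cells at rest in telogen and to support differentiation of the hair shaft in anagen, while antagonists made by the dermal papilla favor the start of growth.

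After filtering, 39076 control cells with 106142161 unique molecular identifiers (UMIs, each a single captured transcript) and 18542 TP cells with 131741811 UMIs were kept, with medians of 2048 and 4796.5 UMIs per cell. Levels are given as counts per 1000000 UMIs of the same cells (CPM), and the kit counts the 3′ end of each molecule, so no division by gene length was applied. The cells fell into 31 clusters, found without the 9 genes or the other BMP pathway genes, and 22 of them were assigned to 14 named classes by marker genes. Unnamed clusters held 39.0% of control cells and 16.0% of TP cells. The kept cells of the libraries had 188 cell barcodes in common. All 8 dermal papilla markers, such as Corin, were more abundant in the dermal papilla-like cells of both libraries than in the other cells, with Corin at 2807 (Con) and 1460 (TP) against 16.5 CPM. The dermal sheath cup-like cells and the dermal fibroblast-like cells passed the same check with Acta2 and Col1a1 among their markers. Of the 14 classes, 2 did not pass it in full. Companion or medulla-like cells had more Krt75 and Foxq1 than the other cells but less Krt6a (2.38 and 4.77 against 24.6 CPM) and less Krt16 (6.62 and 36.5 against 97.9), so that name rests on the first pair. Hair matrix-like cells had 5 of 6 markers above the other cells in both libraries, with Hoxc13 at 51.4 in control and 72.6 in TP against 60.9.

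Upstream sequence was shown for 3 of the genes because the treatment is an androgen and these genes carry the ligand and gremlin results described below. Of the 9 genes, 5 had an entry among the RefSeq promoter windows of GRCm38.p6 that were used. Each line gives the 250 bases before the transcription start in the direction of the gene, with the matches found in capitals.
Bmp4, minus strand, chr14:46390670-46390919: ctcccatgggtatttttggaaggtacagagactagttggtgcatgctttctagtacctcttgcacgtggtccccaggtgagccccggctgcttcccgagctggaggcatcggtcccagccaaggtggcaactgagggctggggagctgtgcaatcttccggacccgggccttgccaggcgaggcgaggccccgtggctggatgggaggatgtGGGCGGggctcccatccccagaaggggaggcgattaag
Bmp6, plus strand, chr13:38345466-38345715: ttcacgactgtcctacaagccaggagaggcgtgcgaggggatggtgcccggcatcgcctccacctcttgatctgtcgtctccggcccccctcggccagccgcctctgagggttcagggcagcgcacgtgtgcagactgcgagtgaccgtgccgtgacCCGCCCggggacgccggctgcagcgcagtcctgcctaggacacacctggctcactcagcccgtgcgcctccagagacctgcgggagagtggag
Grem1, minus strand, chr2:113758649-113758898: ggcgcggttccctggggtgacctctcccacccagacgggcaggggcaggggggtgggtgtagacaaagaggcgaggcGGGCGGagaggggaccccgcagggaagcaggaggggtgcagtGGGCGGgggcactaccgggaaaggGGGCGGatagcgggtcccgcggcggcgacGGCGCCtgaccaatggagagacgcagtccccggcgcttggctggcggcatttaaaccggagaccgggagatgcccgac
Both strands were searched for AGAACA (androgen receptor half-site), CTTTGA (TCF/LEF core), GGCGCC (a GC-rich SMAD element), GGGCGG (GC box) and TATAAA. The capitals mark 1 GC box in each of the Bmp4 and Bmp6 windows, and 3 GC boxes and 1 GGCGCC in the Grem1 window. The half-site and the TCF/LEF letters were not in these 3 windows. Among 32851 windows of the same length, 16.08% held the half-site, 13.83% the TCF/LEF letters, 9.586% GGCGCC, 32.74% the GC box and 12.37% TATAAA. The shown windows had 63.2%, 68.8% and 72% G and C, against a median of 52.4% over all windows.

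Across the whole skin, Grem1 was the 1 member that was at least 2-fold higher in TP, and Nog and Sostdc1 were the 2 members at least 2-fold lower. Among the 17575 genes with at least 50 UMIs, 8.19% were at least 2-fold higher and 10.9% at least 2-fold lower, so 1 and 2 of 9 members lie near that background. On the log2 scale, the 9 members had a median TP/control ratio of -0.42, against -0.24 over all of these genes. Because the cell mixture of the libraries differed, each ratio was also computed with the same share of every cluster in both libraries, once at the resolution used for naming and once over finer clusters, the latter chosen after seeing the data. In bulk sums over all cells, fewer cells of a class and less RNA per cell cannot be told apart.

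**Figure D1:**
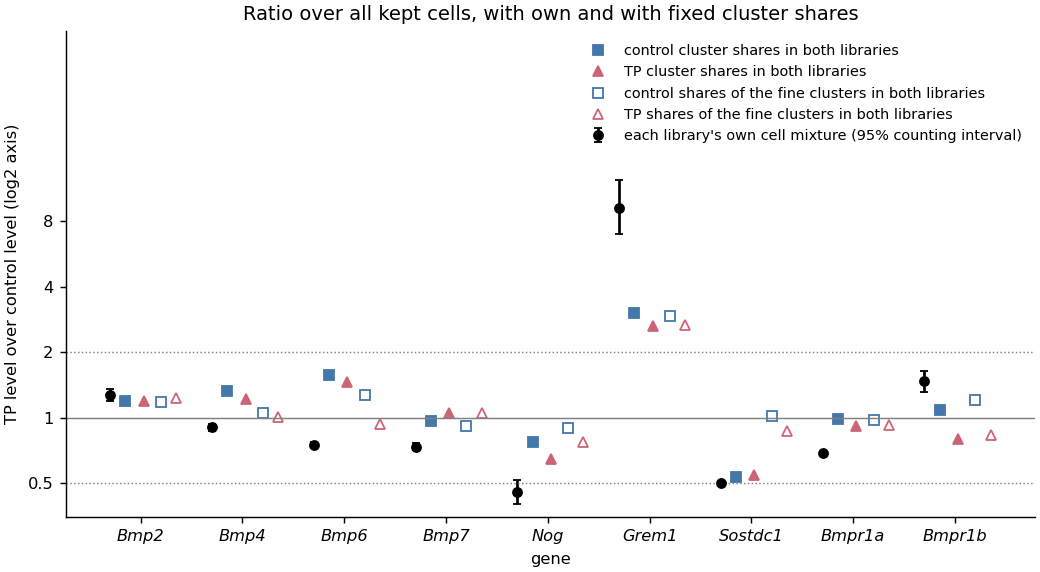
Ratio of the TP level over the control level for each of the 9 genes over all kept cells, on a log2 axis, from each library's own cells (black, with the 95% counting interval) and with cluster shares (filled) or fine cluster shares (open) of 1 library used for both. Grem1 stays above 2 in all 5 versions, at 9.25 with the libraries' own cells, while Sostdc1 lies between 0.498 and 1.02.

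Gene positions are given in GRCm38.p6. Among the ligands, Bmp4 (ENSMUSG00000021835, chr14:46383525-46390669), which the dermal papilla supplies to the follicle epithelium, was at 59.4 CPM in control and 53.6 in TP, a TP/control ratio of 0.903 (0.872 to 0.934). The ratio turned to 1.32 and 1.22 with fixed cluster shares and to 1.06 and 1.00 with fixed fine cluster shares, so its direction over all cells changed with the mixture of cells. It also turned without fixed shares, to 1.05 with cells thinned to 1000 UMIs, 1.15 with a mean of ln values and 1.08 with the TMM factor, another scaling of the libraries. Thinning left out shallower cells and kept 33714 of 39076 control and 17656 of 18542 TP cells, so it changed the mixture too. Bmp6 (ENSMUSG00000039004, chr13:38345716-38500314), another papilla ligand that keeps bulge cells quiescent, went from 68.1 to 51.1, a ratio of 0.750 (0.725 to 0.775). The Bmp6 ratio turned to 1.57 and 1.46 with fixed cluster shares and to 1.27 with the control fine shares, but stayed below 1, at 0.934, with the TP fine shares. Bmp7 (ENSMUSG00000008999, chr2:172868012-172940321), a ligand of epithelium and papilla, went from 53.5 to 39.4, a ratio of 0.736 (0.709 to 0.765), and was at 0.963 and 1.06 with fixed cluster shares, turning with the TP shares. Bmp2 (ENSMUSG00000027358, chr2:133552159-133562896), a ligand known in the differentiating hair shaft, was higher in TP at 16.5 against 13, a ratio of 1.27 (1.19 to 1.36), and was above 1 in each of these settings. None of the ligands reached a 2-fold difference over all kept cells.

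Among the antagonists, Nog (ENSMUSG00000048616, chr11:89300638-89302559), which blocks BMP2 and BMP4 most strongly, was at 6.17 CPM in control (655 UMIs) and 2.81 in TP (370 UMIs), a TP/control ratio of 0.455 (0.400 to 0.518). The 2-fold call was lost with fixed shares, at 0.770 and 0.646 for clusters and 0.899 and 0.776 for fine clusters. Sostdc1 (ENSMUSG00000036169, chr12:36314169-36318452), which also restrains Wnt signaling, was by far the most abundant member, at 503 in control and 251 in TP, a TP/control ratio of 0.498 (0.492 to 0.505). Its call was lost as well, at 0.534 and 0.547 with fixed cluster shares and 1.02 and 0.872 with fixed fine cluster shares. Grem1 (ENSMUSG00000074934, chr2:113748675-113758648), a further secreted blocker of BMP2 and BMP4, was at 0.528 in control (56 UMIs in 40 cells) and 4.88 in TP (643 UMIs in 270 cells), a TP/control ratio of 9.25 (7.03 to 12.4). The ratio was 14.6 with thinning and 12.7 with the mean of ln values. With fixed shares it was 3.04 and 2.65 for clusters and 2.94 and 2.66 for fine clusters.

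Of the receptors, Bmpr1a (ENSMUSG00000021796, chr14:34411061-34503336), the type I receptor needed for hair shaft differentiation, was at 253 in control and 173 in TP, a TP/control ratio of 0.686 (0.674 to 0.698), and at 0.981 and 0.911 with fixed cluster shares. Bmpr1b (ENSMUSG00000052430, chr3:141837135-142169585), the related receptor with a narrower distribution, was at 4.69 in control and 6.89 in TP, a TP/control ratio of 1.47 (1.32 to 1.64). Fixed shares gave 1.09 and 0.794 for Bmpr1b, which reverses its direction for the TP shares, while thinning gave 2.05 and the mean of ln values 2.42, both past 2-fold.

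**Figure D2:**
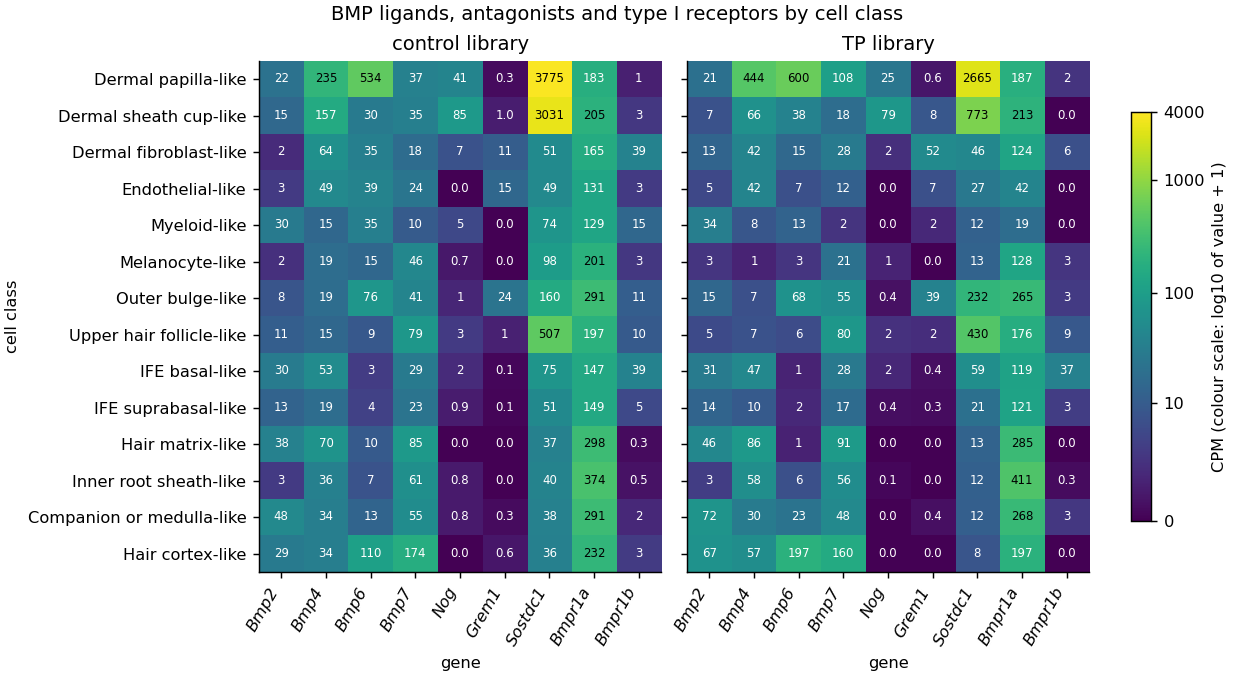
Level of each of the 9 genes, in CPM, in the 14 named cell classes of the control library (left) and the TP library (right), with color on a log10 scale of the value plus 1. The dermal papilla-like row holds the highest Bmp4, Bmp6 and Sostdc1 levels in both libraries, Nog is highest in dermal sheath cup-like cells, and Bmpr1a is highest in inner root sheath-like cells.

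The members fell into papilla, hair shaft, bulge and epidermal patterns, with Bmp4, Bmp6 and Sostdc1 all highest in the papilla. Dermal papilla-like cells held 43.8% of the control UMIs of Bmp4 and 58.8% of those in TP, and 86.8% and 83.4% of the Bmp6 UMIs. For both ligands the papilla level stood apart from the next class in both libraries. The next class for Bmp6 was the hair cortex-like cells, at 110 CPM in control and 197 in TP, a TP/control ratio of 1.79 (1.41 to 2.27). Among the named classes, Bmp7 was highest in the hair cortex-like cells, at 174 and 160 CPM. The next named classes were hair matrix-like cells in control (84.7) and dermal papilla-like cells in TP (108). The unnamed cluster 19 was above both of these, at 143 (127 to 160) and 142 (118 to 169), with intervals that overlap those of the hair cortex-like cells. Bmp2 was highest among the named classes in companion or medulla-like cells, at 47.9 and 71.9, a ratio of 1.5 (1.21 to 1.85). The intervals of the leading classes overlapped in both libraries. The unnamed cluster 30 had Bmp2 at 55 in control (10 UMIs) and 70.0 in TP (41 UMIs). The shares of Bmp2 UMIs also depend on how many UMIs of all genes each class held. Suprabasal cells of the interfollicular epidermis held 18.1% in control and 33.9% in TP and basal cells 15.1% and 20.5%, against 13.1% and 8.31% in companion or medulla-like and 3.34% and 1.98% in hair cortex-like cells. Dermal papilla-like cells held 18.6% and 8.87%. The suprabasal Bmp2 level was 13.2 CPM in control, near the 12.99 over all control cells. In TP it was 13.7, below the 16.52 over all TP cells. The basal level was higher, at 30.3 and 30.7, but near the 29.7 (6 UMIs) and 34.03 of myeloid-like cells. An unnamed cluster led by immune genes had Bmp2 at 2.99 and 3.64. The hair cortex-like cells, which build the hair shaft, had Bmp2 at 29.3 in control and 66.8 in TP, a TP/control ratio of 2.28 (1.47 to 3.54) from 46 and 43 UMIs. The cortex markers checked were all higher in the TP cells of this class as well, among them Krt31 at 1741 and 3065 and Krt33a at 1005 and 2365. Their part in the ratios of this class was not tested.

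Most Nog UMIs were in the mesenchyme of the follicle base. Dermal papilla-like cells held 73.9% of its control UMIs and 63.8% of its TP UMIs, and dermal sheath cup-like cells, the contractile cells around the follicle base, held 13.6% and 15.1%. The sheath cup level was the higher, at 85.4 in control and 79.2 in TP, and stood apart from the papilla level in both libraries. In TP, basal and suprabasal cells of the interfollicular epidermis held 5.95% and 5.41% of the Nog UMIs, at 1.51 and 0.371 CPM. Hair matrix-like, hair cortex-like and endothelial-like cells had 0 Nog UMIs in either library. For the 126 control endothelial-like cells the upper limit was still 11.2 CPM. For Sostdc1 the first 4 places were the same and separated in both libraries, running from dermal papilla-like through dermal sheath cup-like and upper hair follicle-like to outer bulge-like cells. Bmpr1a was found in every class and was highest in inner root sheath-like cells, at 374 and 411. Bmpr1b was mainly epidermal, with 53.6% and 58.9% of its UMIs in basal cells of the interfollicular epidermis (IFE), at 38.9 in control and 36.8 in TP. The dermal fibroblast-like level of Bmpr1b was 39.0 in control and 6.48 in TP, a TP/control ratio of 0.166 (0.0933 to 0.302) from 22 and 31 UMIs. Myeloid-like cells had Bmpr1b at 14.9 in control (3 UMIs, 3.06 to 43.4) and 0 UMIs in TP. That control interval overlaps the 24.4 to 59.0 of the control fibroblast-like cells. An unnamed cluster led by immune genes had 1 and 2 Bmpr1b UMIs. The size of the fibroblast-like Bmpr1b ratio is therefore not read as exact.

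Within classes, 91 pairs of a member and a class had at least 20 UMIs. Of these, 5 differed by 2-fold or more toward TP and 26 by 2-fold or more toward control. Over all 156875 pairs of a gene and a class, 4.12% were at least 2-fold higher and 9.14% at least 2-fold lower. Sostdc1 gave 8 of the 26 lower pairs and Bmp6 gave 6. Most of the Bmp6 pairs had low counts, such as hair matrix-like cells with 35 and 2 UMIs and melanocyte-like cells with 21 and 2 UMIs. Several of the lower pairs, among them most of those of Sostdc1, also lie near the levels of immune cells given next. The 26 lower pairs are therefore not read as 26 differences in expression.

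In droplet data, free RNA can add UMIs of abundant genes to cells that do not express them. Its level was not measured in empty droplets here, so immune cells were taken as the comparison. Myeloid-like cells and an unnamed cluster led by immune genes had Sostdc1 at 74.3 and 56.9 CPM in control and at 12.2 and 14.6 in TP. Melanocyte-like cells, at 97.9 and 13.1, and hair matrix-like cells, at 37.4 and 12.9, were near these levels. After every cell was thinned to 1000 UMIs, 10.1% of control and 1.63% of TP myeloid-like cells had a Sostdc1 UMI, as had 60.5% and 45.3% of dermal papilla-like cells. Apart from dermal sheath cup-like cells, the other lower Sostdc1 pairs were near the immune levels too. IFE suprabasal-like cells were at 50.8 in control and 20.6 in TP, inner root sheath-like cells at 39.7 and 11.7, and companion or medulla-like cells at 37.8 and 11.5. For Bmp6, IFE basal-like and IFE suprabasal-like cells were at 3.35 and 4.04 in control, below the 8.98 of the unnamed immune cluster (6 UMIs). In TP they were at 1.31 and 1.57, and that cluster had 0 UMIs. Myeloid-like cells had Bmp6 at 34.7 in control (7 UMIs in 2 cells) and 12.965 in TP (16 UMIs in 1 cell). Levels at or near those of the immune cells are not read as expression, and whether free RNA accounts for them was not tested.

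**Figure D3:**
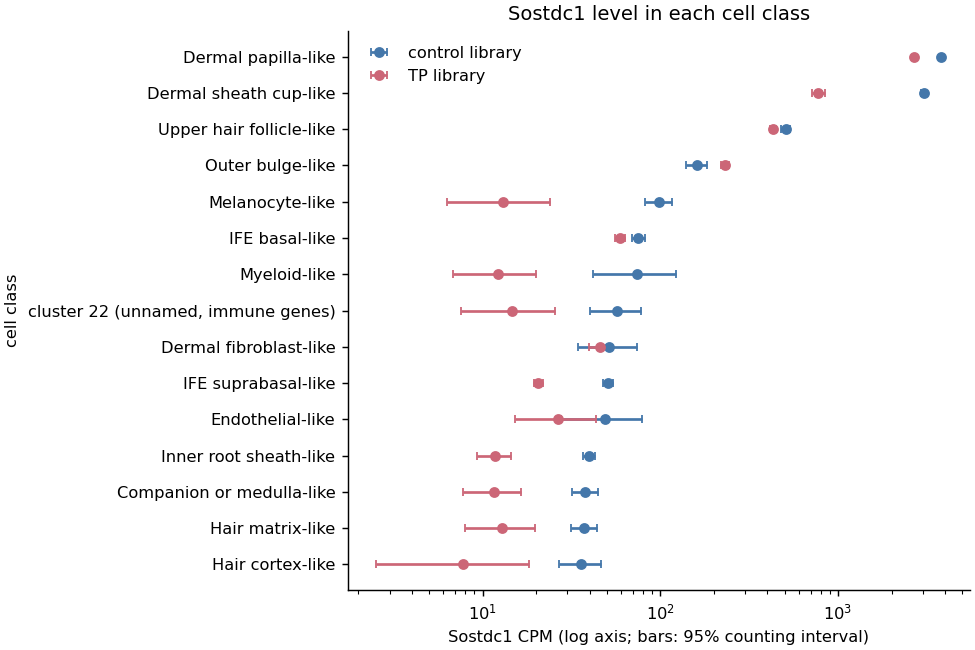
Sostdc1 level in the 14 named classes and in the unnamed cluster led by immune genes, in CPM on a log axis, with 95% counting intervals for the control library (blue) and the TP library (red). The dermal sheath cup-like cells drop from 3031 to 773, the outer bulge-like cells are higher in TP at 232 against 160, and the classes at the bottom lie between 7.77 and 97.9.

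The largest Sostdc1 difference in a class with a level well above that of the immune cells was in the dermal sheath cup-like cells. There Sostdc1 was at 3031 CPM in control (3160 UMIs, 356 cells) and 773 in TP (547 UMIs, 132 cells), a TP/control ratio of 0.255 (0.233 to 0.279). The thinned share of these cells with a Sostdc1 UMI was 59.0% in control and 11.6% in TP. Bmp4 was lower in the same cells, at 157 and 66.4 CPM, a ratio of 0.422 (0.299 to 0.587), while Nog was at 85.4 and 79.2, a ratio of 0.927 (0.652 to 1.31). With Bmp2, at 16 and 5 UMIs, 3 of the 7 members tested there were at least 2-fold lower, where 10.3% of 9456 genes were, and none at least 2-fold higher, where 4.42% were. Of the 6 sheath cup markers, 5 were higher in the TP cells of this class, such as Acta2 at 1270 against 579 and Acan at 209 against 63.3, and the most abundant in control, Enpp2, was lower, at 874 against 1338. Their part in the Sostdc1 ratio was not tested. In the epithelium, Sostdc1 was at 507 and 430 in upper hair follicle-like cells, a ratio of 0.849 (0.796 to 0.906). In outer bulge-like cells, the stem cell compartment, it was at 160 in control and 232 in TP, a TP/control ratio of 1.45 (1.26 to 1.67), the 1 class of 14 with a ratio above 1.

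The dermal papilla-like cells numbered 4028 in control and 1645 in TP and held most of the Bmp6, Nog and Sostdc1 UMIs in both libraries. Their Bmp4 level was 235 in control and 444 in TP, a TP/control ratio of 1.89 (1.80 to 1.98), and their Bmp7 level 37.3 and 108, a ratio of 2.91 (2.60 to 3.26). The unnamed immune cluster had Bmp7 at 32.9 in control (22 UMIs) and 10.9 in TP, and myeloid-like cells at 9.91 (2 UMIs) and 2.43. The control papilla level was near the first of these, so the size of the Bmp7 ratio is not read as exact. In the papilla-like cells Bmp6 was at 534 and 600, a ratio of 1.12 (1.08 to 1.17), and Bmp2 at 21.9 and 20.7, a ratio of 0.945 (0.780 to 1.14). Of the antagonists, Nog and Sostdc1 were lower, with Nog at 41.2 and 25.3, a ratio of 0.614 (0.523 to 0.718), and Sostdc1 at 3775 and 2665, a ratio of 0.706 (0.695 to 0.717), while Grem1 had only 3 and 6 UMIs. Of the 8 papilla markers, 5 were lower in TP as well, among them Corin at 2807 and 1460, Fgf7 at 2574 and 1613 and Rspo3 at 1775 and 1254, while 3 were higher, among them Sox2 at 59.0 and 127. Their part in the antagonist ratios was not tested. Bmpr1a was at 183 and 187, a ratio of 1.02 (0.960 to 1.09). Bmp7 and Bmpr1b (13 and 23 UMIs) were the 2 of 8 members tested that were at least 2-fold higher, where 4.77% of 14579 genes were, and no member was at least 2-fold lower, where 10.2% were. Counted together, there were 4.56 (4.46 to 4.66) Sostdc1 UMIs per UMI of the 4 ligands in control papilla-like cells and 2.27 (2.22 to 2.32) in TP.

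Different clusters held most of the papilla in the libraries. Cluster 7 had 2359 control and 320 TP cells, cluster 8 had 1637 and 1036, and cluster 29 had 32 and 289. Clustering at a finer resolution divided them into 5 fine clusters of at least 100 cells, named here by their leading gene. The Ecrg4-led cells, also marked by Sfrp2, were 33.3% of control and 14.8% of TP papilla-like cells, and the Adamts18-led cells, also marked by Vip and Spock1, were 6.58% and 47.8%. Both came mostly from cluster 8. The Lypd1-led cells were 33.3% and 11.6%, and the Sox5-led cells, whose leading genes include the cell cycle genes Knl1 and Cenpf, were 25.1% and 7.72%. The Aspn-led cells, which correspond to cluster 29, were 0.794% and 17.6%. They and the Adamts18-led cells came mostly from the TP library, so library and cell state cannot be told apart in them. The Sox5-led TP cells had a median of 781 UMIs, far below that of the library.

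**Figure D4:**
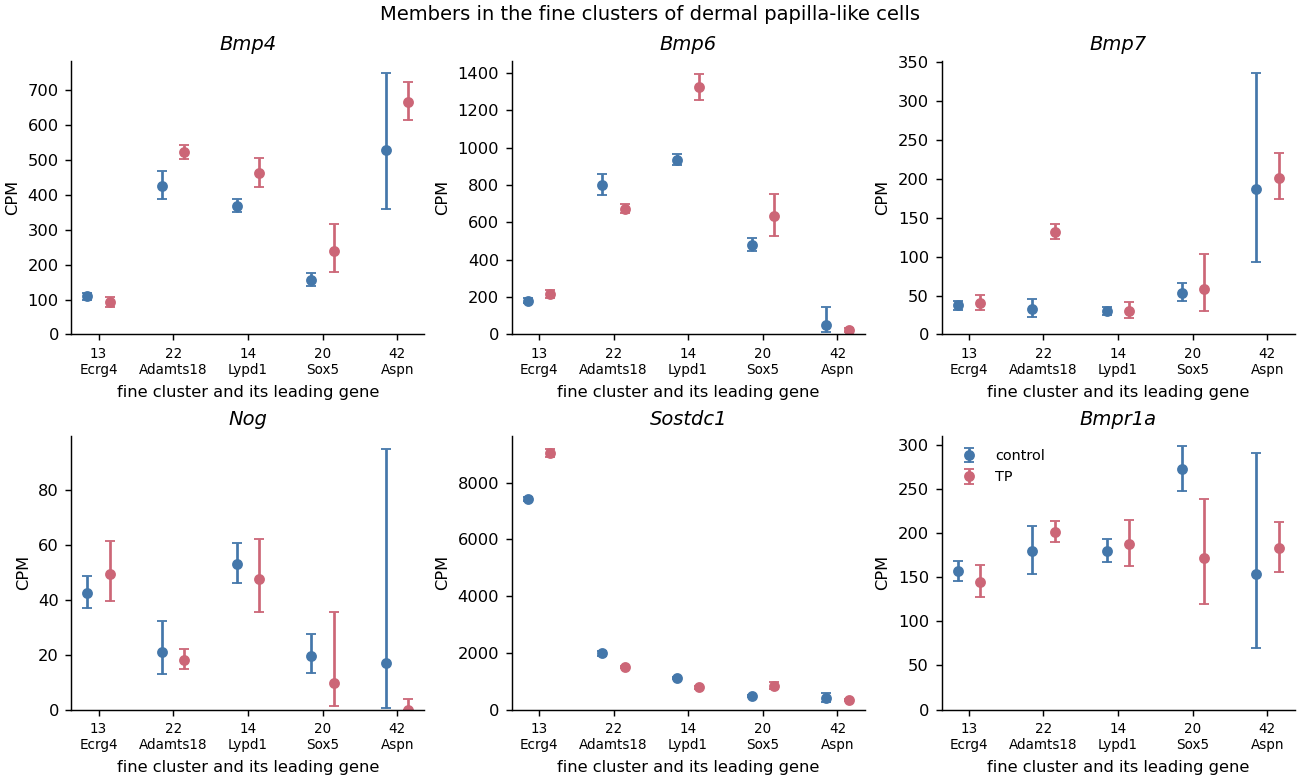
Levels of Bmp4, Bmp6, Bmp7, Nog, Sostdc1 and Bmpr1a, in CPM on linear axes, in the 5 fine clusters of dermal papilla-like cells, named by number and leading gene, with 95% counting intervals for control (blue) and TP (red). Sostdc1 is at 7433 and 9051 in the Ecrg4-led cells and at most 1976 elsewhere, while Bmp7 differs between the libraries in the Adamts18-led cells, at 32.1 and 132.

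The fine clusters differed in their levels of Sostdc1 and of each ligand. The Ecrg4-led cells had the highest Sostdc1 level, 7433 CPM in control and 9051 in TP, and low ligand levels, with Bmp4 at 109 and 92.0 and Bmp6 at 182 and 214. The Adamts18-led cells had Sostdc1 at 1976 and 1505, Bmp4 at 427 and 523 and Bmp6 at 799 and 674. The Lypd1-led cells had the highest Bmp6 level, 937 and 1325, with Bmp4 at 368 and 463 and Sostdc1 at 1102 and 782. The Sox5-led cells had Bmp4 at 157 and 240, Bmp6 at 480 and 632 and Sostdc1 at 487 and 838. The Aspn-led cells had the highest Bmp4 and Bmp7 levels, 668 and 201 in TP, low Bmp6 (21.8) and Sostdc1 at 347. Bmp2 was at 81.7 in these TP cells, from 75 UMIs, against 1 UMI in the control cells. In the 32 control cells of cluster 29 that is a level of 17.5 CPM (0.444 to 97.6). This interval includes the TP level, so no difference is read from it. Nog was highest in the Lypd1-led cells, at 53.0 and 47.4, and the Ecrg4-led cells, at 42.6 and 49.5.

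Within the Ecrg4-led cells Sostdc1 was higher in TP, with a ratio of 1.22 (1.19 to 1.24), the opposite of the whole papilla class. Their ratios for Bmp4, 0.843 (0.701 to 1.01), Bmp7, 1.08 (0.802 to 1.43), and Nog, 1.16 (0.891 to 1.5), had intervals that include 1. Within the Adamts18-led cells Bmp7 was at 4.11 times the control level (2.88 to 6.06) from 32 and 712 UMIs, the largest of the ligand ratios inside the fine clusters that rest on at least 20 UMIs in each library. The control Bmp7 level of these cells was near the 32.9 CPM of the unnamed immune cluster in control, so the size of this ratio is not read as exact. In the Adamts18-led cells Bmp4 had a ratio of 1.22 (1.11 to 1.36), Bmp6 of 0.844 (0.781 to 0.912) and Sostdc1 of 0.761 (0.725 to 0.800). In the Lypd1-led cells Bmp4 had a ratio of 1.26 (1.13 to 1.39), Bmp6 of 1.41 (1.33 to 1.5) and Sostdc1 of 0.709 (0.659 to 0.763). With the shares of the fine clusters held at the control or the TP values, the papilla ratio of Sostdc1 was 1.15 and 0.995, that of Nog 0.981 and 0.895, that of Bmp4 1.20 and 1.22, that of Bmp6 1.30 and 0.967 and that of Bmp7 1.29 and 2.23. A change in the state of cells and a change in how many of each fine cluster were recovered cannot be told apart.

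Cluster 8, which mixes the Ecrg4-led and Adamts18-led cells, was also counted cell by cell after thinning to 1000 UMIs, which describes the same mixture and is no separate evidence for it. In TP, Sostdc1 was detected in 108 of 293 cells with a Bmp4 UMI (36.9%, 31.3 to 42.7) and in 451 of 737 cells without (61.2%, 57.6 to 64.7). In control the shares were closer, 79.8% (73.7 to 85.0) and 86.3% (84.4 to 88.1). Sostdc1 was detected in 30.8% of TP cells with a Bmp7 UMI and 57.3% of those without, against 83.1% and 85.6% in control. Of the TP cells with a Nog UMI, 16 of 22 had Sostdc1.

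Grem1 had a different distribution from the other antagonists. Outer bulge-like cells held 58.9% of its 56 control UMIs and 42.3% of its 643 TP UMIs, and dermal fibroblast-like cells held 10.7% and 39.0%. In outer bulge-like cells its level was 23.7 in control (33 UMIs in 19 of 597 cells) and 39.0 in TP (272 UMIs in 160 of 1447 cells), a TP/control ratio of 1.64 (1.14 to 2.44). After thinning, 1.62% (0.700 to 3.16) of control and 3.67% (2.73 to 4.82) of TP outer bulge-like cells had a Grem1 UMI, with intervals that overlap. In dermal fibroblast-like cells, the collagen-producing cells of the dermis, it was at 10.6 (6 UMIs in 5 of 225 cells) and 52.5 (251 UMIs in 45 of 657 cells), a ratio of 4.94 (2.24 to 13.6). After thinning, 0 of 172 control (0 to 2.12%) and 14 of 616 TP fibroblast-like cells (1.248 to 3.78%) had a Grem1 UMI, with intervals that overlap. Control endothelial-like cells had Grem1 at 15.2 (5 UMIs in 5 of 126 cells), and TP ones at 6.65 (4 UMIs). The size of the fibroblast-like ratio is therefore not read as exact. Outer bulge-like and dermal fibroblast-like cells were also more numerous in the TP library, which the fixed shares given above hold constant. Dermal papilla-like cells had 3 and 6 Grem1 UMIs, and hair matrix-like, inner root sheath-like and melanocyte-like cells had 0 in both libraries. A small unnamed cluster led by the smooth muscle genes Myh11 and Tagln had 0 Grem1 UMIs in 64 control cells and 38 UMIs in 5 of 113 TP cells. Of the 8 members tested in dermal fibroblast-like cells, Grem1 and Bmp2 (1 and 64 UMIs) were at least 2-fold higher, where 5.44% of 11412 genes were, and Bmp6 and Bmpr1b were at least 2-fold lower, where 13.7% were. Bmp2 was at 13.4 in these TP cells, below the 34.03 of TP myeloid-like cells. Bmp6 was at 35.4 in control and 15.5 in TP, near the 34.7 and 12.965 of myeloid-like cells. The unnamed immune cluster was lower, at 3.64 for Bmp2 in TP and at 8.98 and 0 for Bmp6. The Bmp2 and Bmp6 calls are therefore not read as differences in expression. All 8 fibroblast markers were higher in the TP cells of this class as well, among them Lum at 811 and 1395 and Dcn at 7213 and 11195, and their part in these differences was not tested.

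Outside the papilla, the differentiating follicle showed further ligand differences. Bmp4 in inner root sheath-like cells was at 36.1 in control and 58.4 in TP, a TP/control ratio of 1.62 (1.43 to 1.84) that was 1.27 and 1.18 with fixed shares of the fine clusters. In hair cortex-like cells Bmp4 was at 33.7 and 57.5, a ratio of 1.70 (1.09 to 2.64), and in hair matrix-like cells at 70.5 and 86.1, a ratio of 1.22 (0.988 to 1.51). In outer bulge-like cells and upper hair follicle-like cells Bmp4 was low and lower in TP, at 18.7 and 6.59 and at 14.9 and 7.08, levels close to the 12.0 and 10.9 of the unnamed immune cluster. Bmp6 in outer bulge-like cells was at 76.1 and 67.6, a ratio of 0.889 (0.718 to 1.11). Bmp7 was level in hair matrix-like cells at 84.7 and 91.1 and in upper hair follicle-like cells at 78.6 and 80.5, with intervals of the ratio that include 1. Bmpr1a was at 298 and 285 in hair matrix-like cells and at 291 and 265 in outer bulge-like cells, and its ratio in inner root sheath-like cells was 1.10 (1.05 to 1.15). The interval of the Bmpr1a ratio lay below 1 in 7 of 14 classes, and 2 were at least 2-fold lower, endothelial-like cells at 131 and 41.6 (0.318, 0.186 to 0.533) and myeloid-like cells at 129 and 18.6 (0.145, 0.0789 to 0.264), from 43 and 25 and from 26 and 23 UMIs. The unnamed immune cluster was lower as well, at 198 and 52.1 (0.264, 0.183 to 0.375), so the lower levels of these low-count classes are not read as a difference in expression.

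Over the 28 combinations of class and library, the log2 level of Nog went most closely with D630003M21Rik, Vipr2 and Masp1 among 14787 genes, with Pearson correlations of 0.93, 0.92 and 0.92. Sostdc1 went with Tle2 (0.92), 1190005I06Rik (0.88) and Mc5r (0.88), and Bmp4 with Thra (0.82), Wnt5a (0.80) and Glis1 (0.77). Bmp6 went with Rcn2 (0.83), Bmp7 with Yae1d1 (0.87), Bmp2 with Slc16a10 (0.73), Grem1 with Cd34 (0.86), Bmpr1a with Bri3bp (0.90) and Bmpr1b with Sema3c (0.83). Between members, Nog and Sostdc1 had a correlation of 0.84 and Bmp7 and Bmpr1a of 0.76. These are descriptions over points that share libraries and depth.

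Of the 39 other genes of the pathway, 35 had at least 50 UMIs over all kept cells, and 2 of them were at least 2-fold higher and 6 at least 2-fold lower, where 8.19% and 10.9% of all 17575 genes were. Their median log2 ratio was -0.08. Id1, a direct transcriptional target of BMP signaling, was at 57.4 in control and 116 in TP, a TP/control ratio of 2.03 (1.97 to 2.09), and at 2.30 and 2.06 with fixed cluster shares. Chrdl1, a chordin-like antagonist, was at 1.11 and 5.59, a ratio of 5.03 (4.14 to 6.16), but at 0.972 and 0.899 with fixed shares. Smad6 and Smad7, the inhibitory SMADs that BMP signaling itself induces, were at 42.8 and 15.3 (0.358) and at 49.7 and 24.7 (0.497), or 0.790 and 0.649 and 0.922 and 0.854 with fixed shares. Msx2, a homeobox target in the hair matrix, was at 50.8 and 22.3, a ratio of 0.439 that became 0.899 and 0.770. The type II receptor Acvr2b (24.9 and 9.76), the ligand Bmp8a (13.4 and 6.51) and its neighbor Bmp8b (101 and 32 UMIs) were the other lower genes, with fixed shares giving 0.699 and 0.671 for Acvr2b, 1.09 and 0.924 for Bmp8a, which turns its direction for the control shares, and 0.511 and 0.490 for Bmp8b. Bmp8b lay below the count set for naming and is named after its values were seen.

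The most abundant gene of each role differed less. Fstl1, a secreted follistatin-like antagonist, was at 131 and 107 (0.820), Bmpr2, the type II BMP receptor, at 251 and 238 (0.946), and Smad4, the common partner SMAD, at 154 and 106 (0.687). Smurf2, a ubiquitin ligase of the pathway, was at 179 and 145 (0.814), Id3 at 186 and 182 (0.976) and Bmp1, a protease that is not a true BMP ligand, at 31.1 and 30.5 (0.981).

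**Figure D5:**
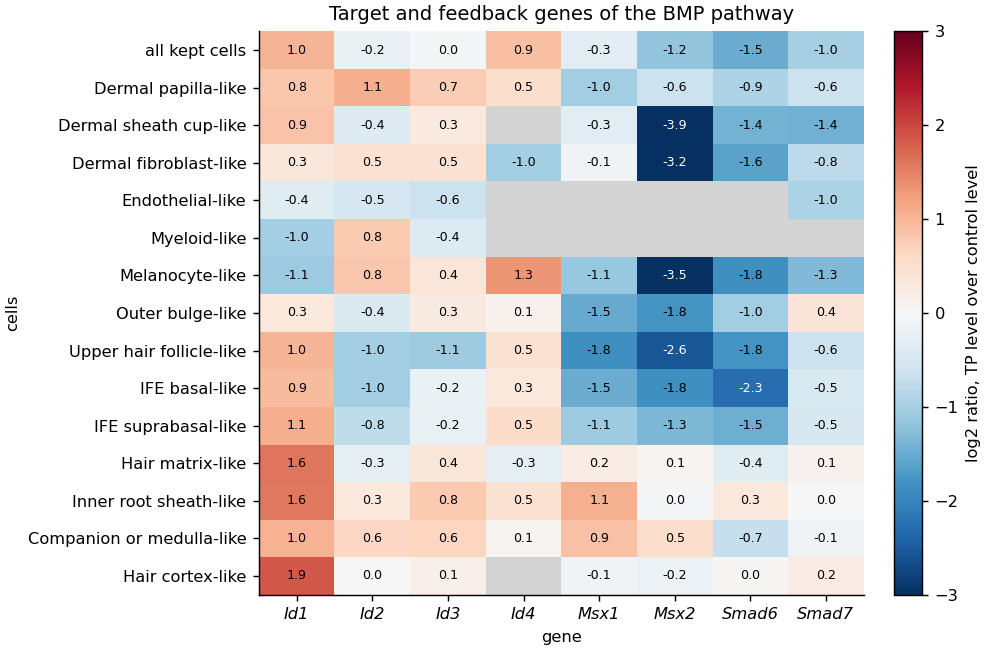
log2 ratio of TP over control for the target genes Id1 to Id4, Msx1 and Msx2 and the feedback inhibitors Smad6 and Smad7, over all kept cells and in 14 classes, with grey where both libraries held fewer than 20 UMIs together or 1 held none. Id1 is positive in 11 of 14 classes, while Smad6 and Msx2 are negative in most of the 12 classes shown for each.

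Across the classes, Id1 had a ratio above 1 in 11 of 14 classes and was at least 2-fold higher in 6 and at least 2-fold lower in 2, the melanocyte-like and myeloid-like cells, beside the 4.12% and 9.14% of all gene and class pairs given above. The highest ratios were those of hair cortex-like cells at 88.5 and 323 (3.65, 2.93 to 4.56) and hair matrix-like cells at 34.1 and 104 (3.05, 2.40 to 3.87). Id3 had a ratio above 1 in 9 of 14 classes, with the interval below 1 in 4. Id2 had a ratio above 1 in 6 of 14, with the interval below 1 in 5, and Id4 in 8 of the 10 classes tested. Smad6 was at least 2-fold lower in 7 of 12 classes and Msx2 in 7 of 12, but the unnamed immune cluster fell on the same side, at 24.0 and 1.21 for Smad6 (16 and 1 UMIs) and at 24.0 and 6.06 for Msx2 (16 and 5 UMIs). Low levels of either gene near these, such as Msx2 at 17.0 and 4.75 in IFE basal-like cells, are therefore not read as expression or as a difference. Above them, Msx2 was at 54.1 and 56.6 in hair matrix-like cells and 72.9 and 70.7 in inner root sheath-like cells, and Smad6 was at 68.1 and 25.4 in dermal sheath cup-like cells.

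In the dermal papilla-like cells 33 of the other pathway genes had at least 20 UMIs, and 4 were at least 2-fold higher and 2 at least 2-fold lower, where 4.77% and 10.2% of all genes tested there were. All 6 are named after their values were seen. The higher genes were Fst (follistatin, an activin and BMP antagonist) at 180 and 545 (3.03, 2.88 to 3.19), Htra1 at 49.3 and 105, Id2 at 224 and 473, and Chrd with 30 and 49 UMIs. The lower genes were Bmp8a with 43 and 10 UMIs and Msx1 with 138 and 53. Inside the Ecrg4-led cells Id1 had a ratio of 1.96 (1.66 to 2.31), Id2 of 2.13 (1.95 to 2.33), Id3 of 1.94 (1.83 to 2.07) and Fst of 5.21 (4.65 to 5.83). Inside the Adamts18-led cells Id1 had a ratio of 0.957 (0.806 to 1.14), Id2 of 1.67 (1.49 to 1.87), Id3 of 1.95 (1.73 to 2.20) and Fst of 1.26 (1.15 to 1.38).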

How the data were processed

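Per the labels and the study's methods, dorsal skin was dissociated with collagenase, cleaned on Percoll and run on a 10x 3′ kit, and reads were counted with Cell Ranger 8.0.1. The deposited matrices hold raw UMI counts per gene and barcode (GRCm38), 45709 barcodes for control and 25931 for TP. Barcodes needed 200 to 8000 detected genes and no more than 10% mitochondrial UMIs, and the 7.5% of barcodes with the highest artificial-neighbour share (25% artificial doublets, 1% neighbourhood, 30 components) were removed as doublets, 3168 and 1503 barcodes. The 303 barcodes found in both full lists were not removed. Clustering used Seurat 5.3.0 (R 4.3.3) with reciprocal PCA integration of the libraries, 2000 variable genes, 30 components and Louvain resolution 1 (0.5 and 2 as alternatives), leaving out the 48 BMP genes. Clusters were named from marker lists by a mean z-score of at least 1.25 with at least 3 markers at 10 or more CPM, and stayed unnamed where another class had as many markers among the top 10 genes. A cluster with a median depth far below that of each library also stayed unnamed if no marker of its class was among those genes. These limits were set after the clusters were seen.

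UMIs were summed per library and class and scaled to 1000000 (CPM) with exact Poisson intervals. Ratios have exact conditional binomial intervals and shares of cells Clopper-Pearson intervals, all at 95%. Thinning took every cell to 1000 UMIs and left out shallower cells. With 1 library per group no test was possible, and a difference of 2-fold over at least 50 UMIs in all cells or 20 in a class was counted. Alternatives used the TMM factor of edgeR 4.0.16, fixed cluster shares, thinning, a mean of ln(counts per 10000 + 1), doublets kept and other mitochondrial limits. The computations were tested on simulated counts. A lymphocyte-like class had been planned as the free RNA background, but that cluster also held myeloid genes and stayed unnamed, so it was used by its number together with the myeloid-like class. All 9 members were named. Other pathway genes were named where they had the most UMIs in their role, or at least 200 UMIs and a 2-fold difference, and for each member the genes with the highest correlation. The members and lists were chosen with earlier results of these data known.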

Additional observations from a re-analysis of the deposited data

How the results depend on the processing

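Each member's ratio over all kept cells was recomputed in 10 settings, giving 90 values, of which 21 stayed within counting error, 53 moved and 16 changed direction. Bmp4 turned from 0.903 to 1.05 with thinning, 1.15 with the mean of ln values, 1.08 with the TMM factor, 1.32 and 1.22 with control and TP cluster shares, and 1.06 and 1.00 with the shares of the resolution 2 clusters. Bmp6 turned to 1.57 and 1.46 with cluster shares and to 1.27 with control shares of the resolution 2 clusters. Bmp7 turned to 1.06 with the mean of ln values and with TP cluster shares, and to 1.05 with TP shares of the resolution 2 clusters. Sostdc1 turned to 1.02 with control shares of the resolution 2 clusters, and Bmpr1b to 0.794 and 0.833 with TP shares at either resolution. Grem1 ranged from 2.65 with TP cluster shares to 14.6 with thinning. Within classes, 127 values for 20 ratios gave 85 within counting error, 40 moved and 2 reversed, which were the papilla ratios of Bmp6 (0.967) and Sostdc1 (1.15) with TP and control shares of the resolution 2 clusters. The count of members at least 2-fold higher became 2 with thinning and with the mean of ln values, where Bmpr1b joined at 2.05 and 2.42. The count at least 2-fold lower became 0 with thinning, the mean of ln values, the TMM factor and both cluster shares. The share of all genes past 2-fold is not given for these settings, and the TMM factor shifts the ratio of every gene. These counts are therefore not read as results about the members. With the TMM factor within classes, 8 of 91 pairs were at least 2-fold higher and 19 lower, beside 6.17% and 6.34% of all pairs (5 and 26, beside 4.12% and 9.14%, without it). With at least 50 UMIs, 74 pairs were tested and 4 were higher and 16 lower, beside 3.08% and 6.14% of all pairs. Settings based on resolution 2 shares and on shares within a class were chosen after seeing the data. Beyond what the shares themselves change by construction, the cause was not tested. No paired analysis was possible because each group has 1 library, and no replicate could be left out. Depth limits Nog, Grem1 and Bmpr1b most, with 56 to 908 UMIs in a library.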
